A study of Mus musculus with 9 samples.

Results

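The comparison described here sets 2 knockout populations of C2C12 cells against each other: Per1KO, edited at Per1 with CRISPR-Cas9, and Per2KO, edited at Per2 in the same way. C2C12 is an established line of mouse myoblasts, and the cells were kept in DMEM with 10% FBS before differentiation (day 0) and then moved to DMEM with 5% horse serum, where they were sampled on days 3 and 5. Each population and day has 1 library of polyadenylated RNA, so the comparison holds 6 of the 9 libraries of the series, chosen by their labels and paired by day. The other 3 are a control that received a non-target guide RNA (WT) on the same days. The labels do not say whether a population is 1 clone or a pool of edited cells, and they name whole muscle as the tissue beside the cell line. With 1 library per population and day, a single-day difference cannot be told apart from a difference between the 2 cultures sampled then. Such differences carry no p-value of their own. The interaction test below rests on the same day 0 libraries, so its p-values do not measure variation between cultures on that day.

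The circadian clock is a feedback loop of transcription that Per1 and Per2 help to close: the BMAL1 and CLOCK proteins activate the Per and Cry genes and the PER and CRY proteins shut that activation off. Myoblasts divide in rich serum, and when growth factors are withdrawn they leave the cell cycle, switch on Myog and fuse into myotubes that build sarcomeres. Several of the gene groups below belong to stress and nutrient programmes of dividing cells: the integrated stress response, in which slowed translation initiation raises the transcription factor ATF4 and with it genes for amino acid supply, and the sterol programme, in which SREBP2 raises the genes of cholesterol synthesis and uptake.

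Levels are counts scaled to depth (CPM, the usual count per library size, with TMM scaling over the 6 knockout libraries), and differences are log2 CPM in Per1KO minus log2 CPM in Per2KO with a prior count of 2, so that a negative value means a higher level in Per2KO. The 6 libraries held 41997763 to 48051824 counts, and those of day 0 held 46191257 in Per1KO and 47156412 in Per2KO. Mitochondrially encoded genes took 1.46% to 2.35% of the counts. The WT libraries held 5020385 to 6773320 counts, and depth separates them from all 6 knockout libraries, so WT levels are given only for orientation. Markers of the myogenic line were present (Myod1 at 88.9, 121 and 140.0 CPM in Per1KO and 59.8, 126 and 148 CPM in Per2KO on days 0, 3 and 5). The endothelial markers Emcn and Erg, the leukocyte markers Adgre1 and Tyrobp and the epithelial marker Epcam had 0 counts in all 6 libraries. Other members of these marker lists were counted. On day 0 endothelial Flt1 had 217 counts in Per1KO and 194 in Per2KO, leukocyte Cd14 681 and 623, and epithelial Krt19 1438 and 1486. Over the 6 libraries the endothelial list summed to 3.40 to 5.54 CPM, the leukocyte list to 7.18 to 16.2 CPM and the epithelial list to 13.4 to 33.2 CPM.

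Per1 (ENSMUSG00000020893, chromosome 11, 69095217 to 69109960, plus strand) was at 21.3, 33.0 and 29.4 CPM in the libraries labelled Per1KO and at 16.8, 30.9 and 33.5 CPM in those labelled Per2KO on days 0, 3 and 5, against 36.2, 34.3 and 31.5 CPM in WT. Per2 (ENSMUSG00000055866, chromosome 1, 91415982 to 91459324, minus strand) was at 6.71, 9.59 and 10.7 CPM in Per1KO and 3.57, 9.27 and 8.52 CPM in Per2KO, against 9.91, 11.7 and 20.8 CPM in WT. Per1 RNA was thus above its Per2KO level in Per1KO on days 0 and 3 and below it on day 5, and Per2 RNA was lower in Per2KO on each of the 3 days, with little difference on day 3. Counts over a whole gene do not measure editing, and the populations are named as the labels name them.

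The populations lay furthest apart on day 0. Among the 9549 genes whose mean reached 10 CPM, 69.4% were within 1.2-fold of each other before differentiation, 97.3% after 3 days and 94.4% after 5, and the median absolute log2 difference was 0.163, 0.0652 and 0.0733. At least 1 CPM in either library and a 2-fold difference were reached on day 0 by 97 genes higher in Per1KO (0.76% of 12766) and 213 lower (1.67%). On day 3 these were 14 genes higher (0.108% of 12991) and 16 lower (0.123%), and on day 5 they were 31 higher (0.237% of 13063) and 43 lower (0.329%). At a smaller step of 1.2-fold, 18.7% of the 12905 tested genes were higher in Per1KO on day 0 and 17.3% lower. After 3 days 5.08% were higher and 4.39% lower, and after 5 days 7.02% and 6.1%.

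Genes whose transcripts share sequence with other genes weigh more on the later days. Of the tested genes at least 2-fold apart, 24.9% of 321 (day 0), 81.0% of 21 (day 3) and 48.1% of 54 (day 5) shared at least 10% of the 31-base words of their longest transcript with another gene, against 23.6% of all tested genes. Without such genes the counts over both directions were 245, 7 and 46 for the 3 days in turn, in place of 310, 30 and 74. The difference on 1 day said little of that on another: across the 9549 genes, which are not independent replicates, Pearson's r was 0.0632 between days 0 and 3, 0.113 between days 0 and 5 and 0.149 between days 3 and 5.

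Across 2 tests, day 0 stood out and a steady difference did not. In the additive model, which treats the 3 days as if they were replicates, edgeR's quasi-likelihood test called 0 of 12905 genes (0%), with 349 higher (2.7%) and 228 lower (1.77%) in Per1KO at an unadjusted p under 0.05. DESeq2's Wald test called 8 genes and limma-voom 0. Without day 0 the additive test called 45 genes, 29 of them higher in Per1KO, on a fit with 1 residual degree of freedom. The interaction of population with day 0, which treats days 3 and 5 as replicates with 1 residual degree of freedom, called 906 genes whose day 0 difference lay above that of days 3 and 5 (7.02%) and 878 whose difference lay below it (6.8%). These 1784 calls depend on which libraries and which tool are used: with the WT libraries in the fit edgeR called 0 genes, with 726 at an unadjusted p under 0.05, and DESeq2 called 486 on the 6 knockout libraries. Every interaction value below comes from edgeR on the 6 knockout libraries, and none of them was called in the fit on 9 libraries. The residual of the fit on 6 libraries comes from days 3 and 5, so variation between cultures on day 0 is not in it.

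**Figure D1:**
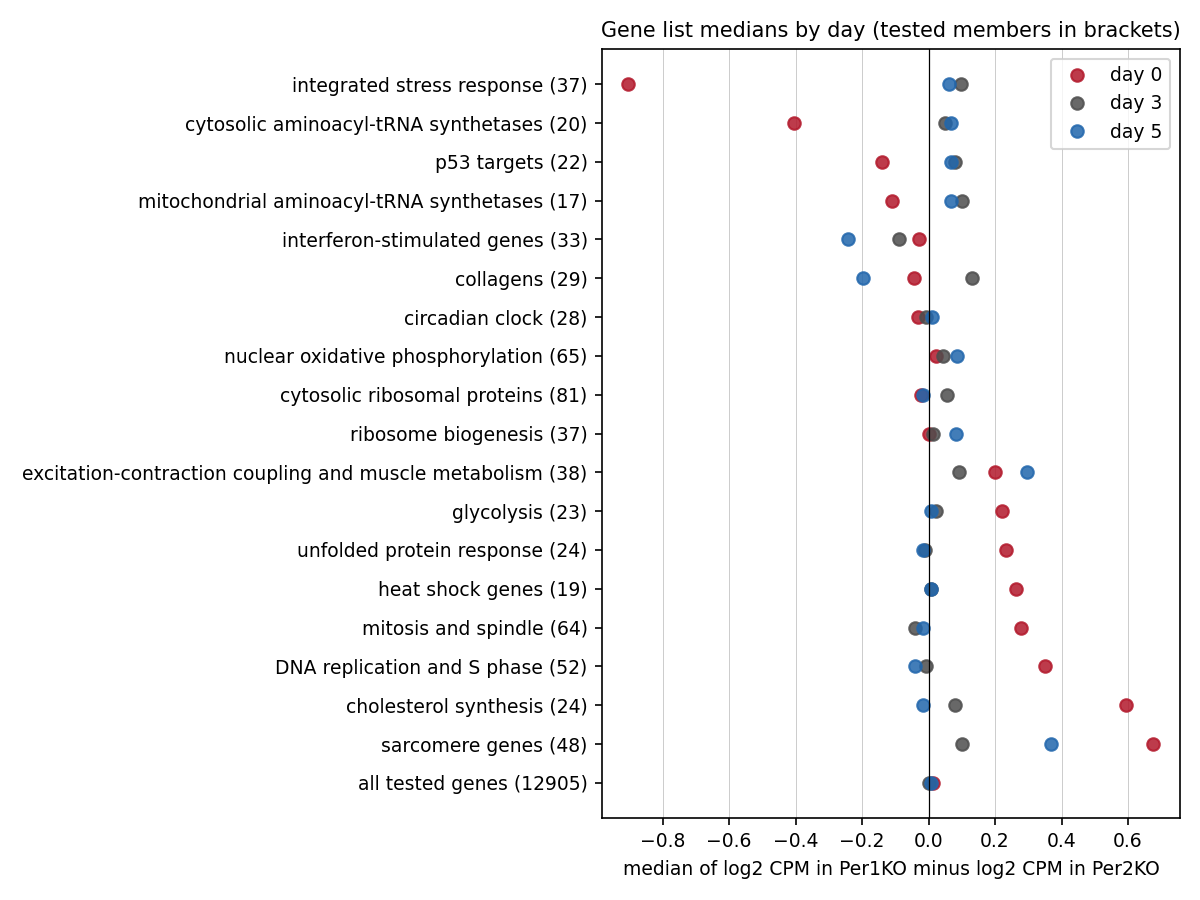
Median difference of 18 gene lists and of all tested genes on days 0, 3 and 5 (x axis, log2 CPM in Per1KO minus log2 CPM in Per2KO; each point is the median over the tested members, whose number stands in brackets). On day 0 the integrated stress response lies at -0.90 and sarcomere genes at 0.68, while on day 3 the 18 lists lie between -0.09 (interferon-stimulated genes) and 0.13 (collagens).

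Genes of the integrated stress response formed the group with the largest median difference among the 18 lists plotted by day. The neural and glial markers, not plotted, had a larger one on day 0 (0.97 over 5 genes). It was much smaller without the members that share sequence with other genes, as given below. The stress response genes were higher in Per2KO on day 0. Of 38 genes listed, 37 were tested (Fgf21 was not), and 36 of the 37 were at least 1.2-fold lower in Per1KO, against 17.3% of all tested genes; 11 were at least 2-fold lower. The median difference was -0.90, 0.10 and 0.06 on the 3 days, and that of all tested genes was 0.01, 0.00 and 0.01. Per2KO on day 0 was the highest of the 6 libraries for 37 of the 37 genes, as it was for 22.3% of all tested genes. The interaction was called for 35 of the 37, each with the day 0 difference below the later ones, against 6.8% of all tested genes. Against the shared WT library of day 0 the list's median was -0.22 in Per1KO and 0.66 in Per2KO.

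Atf4 itself, the transcription factor at the centre of the response, was at 533, 400.4 and 443 CPM in Per1KO and 997, 378 and 429.9 CPM in Per2KO on days 0, 3 and 5. The day 0 level in Per2KO stood 1.87-fold above that in Per1KO, and the 4 later libraries lay between 378 and 443 CPM. The interaction was -0.97 ± 0.10 (SE), adjusted p = 3.98e-05 by edgeR's quasi-likelihood test.

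Trib3 (ENSMUSG00000032715, chromosome 2, 152337422 to 152344032, minus strand), a pseudokinase that is a target of ATF4 and restrains the response, was at 56.5, 4.99 and 8.23 CPM in Per1KO and at 281, 5.49 and 7.75 CPM in Per2KO. On day 0 its level in Per2KO was 4.98 times that in Per1KO, and on days 3 and 5 all 4 libraries were below 10 CPM. Its WT levels were 93.9, 86.3 and 226 CPM, so WT lay between the 2 knockout populations on day 0 and above both later. The interaction was -2.30 ± 0.13 (SE), adjusted p = 1.78e-07 with edgeR.

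Cth (ENSMUSG00000028179, chromosome 3, 157894248 to 157925077, minus strand), which encodes the cystathionine gamma-lyase that makes cysteine, was at 20.4, 1.03 and 1.51 CPM in Per1KO and 132, 0.946 and 1.49 CPM in Per2KO. Its day 0 level was 6.46-fold higher in Per2KO, with an interaction of -2.76 ± 0.20 (SE), adjusted p = 2.44e-06 in edgeR. After the serum change it was at or below 1.51 CPM in both populations. Vldlr, a lipoprotein receptor gene, had the most negative day 0 difference of the list at -3.40, with 1.07, 1.45 and 1.1 CPM in Per1KO and 11.8, 1.56 and 3.39 CPM in Per2KO.

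Among the pro-apoptotic and negative feedback genes, Ddit3, which encodes CHOP, was at 21.3, 26.4 and 20.6 CPM in Per1KO and 91.0, 27.0 and 20.3 CPM in Per2KO. Chac1, whose product degrades glutathione, was at 63.4, 14.4 and 30.6 CPM in Per1KO and 192, 12.1 and 28.7 CPM in Per2KO. Nupr1, a small stress-induced chromatin protein gene, was at 23.8, 33.7 and 44.1 CPM in Per1KO and 72.9, 34.1 and 46.9 CPM in Per2KO. In each of these 3 genes the day 0 library of Per2KO was high and the other 5 libraries were lower, and Ddit3 and Chac1 were chosen after their values were seen. Their edgeR interactions were -2.09, adjusted p = 4.36e-07 for Ddit3, -1.76, adjusted p = 5.90e-07 for Chac1 and -1.56, adjusted p = 2.75e-06 for Nupr1.

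Genes of amino acid synthesis and transport were higher in Per2KO on day 0 as well. Asns, the asparagine synthetase gene, was at 329, 56.5 and 90.9 CPM in Per1KO and 556, 49.7 and 87.1 CPM in Per2KO, and Slc7a11, the cystine carrier gene, was at 18.8, 1.89 and 1.32 CPM in Per1KO and 48.9, 1.64 and 1.78 CPM in Per2KO; both were chosen after their values were seen. Psat1, an enzyme of serine synthesis, was the member with the smallest day 0 difference, at 696, 287 and 316 CPM in Per1KO and 800.2, 276 and 289 CPM in Per2KO, a difference of -0.20 that the interaction test did not call (adjusted p = 0.068, edgeR). The day 0 level of Per1KO was also above all 4 later libraries for 33 of the 37 genes, as it was for 41.9% of all tested genes.

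Cytosolic enzymes that load amino acids onto tRNA had the same direction, and their mitochondrial counterparts differed less. The list of each was added after the day 0 values had been seen, and the cytosolic one shares 8 genes with the stress list. Of 20 cytosolic aminoacyl-tRNA synthetase genes, 14 were at least 1.2-fold lower in Per1KO on day 0 and 1 was higher (median -0.41). The shares of all tested genes were 17.3% and 18.7%. The interaction was called for 13, each with the day 0 difference below the later ones, against 6.8% of all tested genes. Lars, which loads leucine and was chosen after its values were seen, was at 360.0, 158 and 191 CPM in Per1KO and 630.5, 159 and 181 CPM in Per2KO, and Wars, which loads tryptophan and had the most negative difference, was at 172, 71.8 and 79.8 CPM in Per1KO and 323, 72.5 and 77.5 CPM in Per2KO. Dars and Kars did not follow, with day 0 differences of -0.05 and -0.03. Of 17 mitochondrial synthetase genes 3 were at least 1.2-fold lower (median -0.11), near the 17.3% of all tested genes, and the interaction was called for 0.

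Promoter sequence was compared because members of the list differed in the same direction on day 0. RefSeq promoters of GRCm38.p6, from 250 bases before to 50 bases after each annotated start, matched 29 of the 37 genes by symbol. The letters TGATGNAAT, a composite element that ATF4 with a C/EBP partner can bind, were searched on both strands and stood in promoters of 4 of the 29 genes (13.8%), against 45 of 9298 tested genes with a promoter (0.484%) and 293 of all 27025 (1.08%). A match is a description of letters and not a site of binding. The list was drawn up from genes of the ATF4 response, so its share describes the list and not the day 0 difference. These letters were not among the motifs first planned. The 4 matches are shown, 5′ to 3′ on the gene's strand, with the matched letters or their reverse complement in capitals, each from before the start.
Nupr1 (chr7:126625548-126625606, minus strand): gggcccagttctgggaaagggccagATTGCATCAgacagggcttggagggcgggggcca
Pycr1 (chr11:120643818-120643876, minus strand): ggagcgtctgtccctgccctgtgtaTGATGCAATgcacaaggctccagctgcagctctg
Aars (chr8:111033704-111033762, plus strand): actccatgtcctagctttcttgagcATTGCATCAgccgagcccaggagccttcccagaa
Gars (chr6:55037945-55038000, plus strand): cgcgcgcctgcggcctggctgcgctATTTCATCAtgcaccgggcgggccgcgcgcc
The genes shown differed on day 0 by -1.61 (Nupr1), -0.88 (Pycr1, proline synthesis), -0.67 (Aars, alanine loading) and -0.40 (Gars, glycine loading), so the letters were found both in a gene with a large difference and in genes with smaller ones. Trib3, Ddit3 and Atf4 had a promoter in the table without these letters.

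Other lists of stress signalling differed in either direction on day 0 and by less at the median. The shares of all tested genes at 1.2-fold on day 0 were 18.7% higher and 17.3% lower in Per1KO. Of 24 unfolded protein response genes 12 were higher and 5 lower in Per1KO on day 0 at 1.2-fold (median 0.23). Sdf2l1, a chaperone cofactor gene of the endoplasmic reticulum, was at 12, 13.2 and 14.3 CPM in Per1KO and 6.22, 12.4 and 14.2 CPM in Per2KO, a day 0 difference of 0.94, while Herpud1, a gene of protein removal from that compartment, was at 62.9, 110.0 and 165 CPM in Per1KO and 132, 95.1 and 147 CPM in Per2KO, a difference of -1.07. Hspa5, the main chaperone there, was at 1007, 1078 and 1011 CPM in Per1KO and 1099, 1100 and 1018 CPM in Per2KO. Of 19 heat shock genes 9 were higher and 0 lower in Per1KO (median 0.26), and of 22 p53 targets 2 were higher and 9 lower (median -0.14), among them Sesn2 (-1.38), which the stress list also holds.

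**Figure D2:**
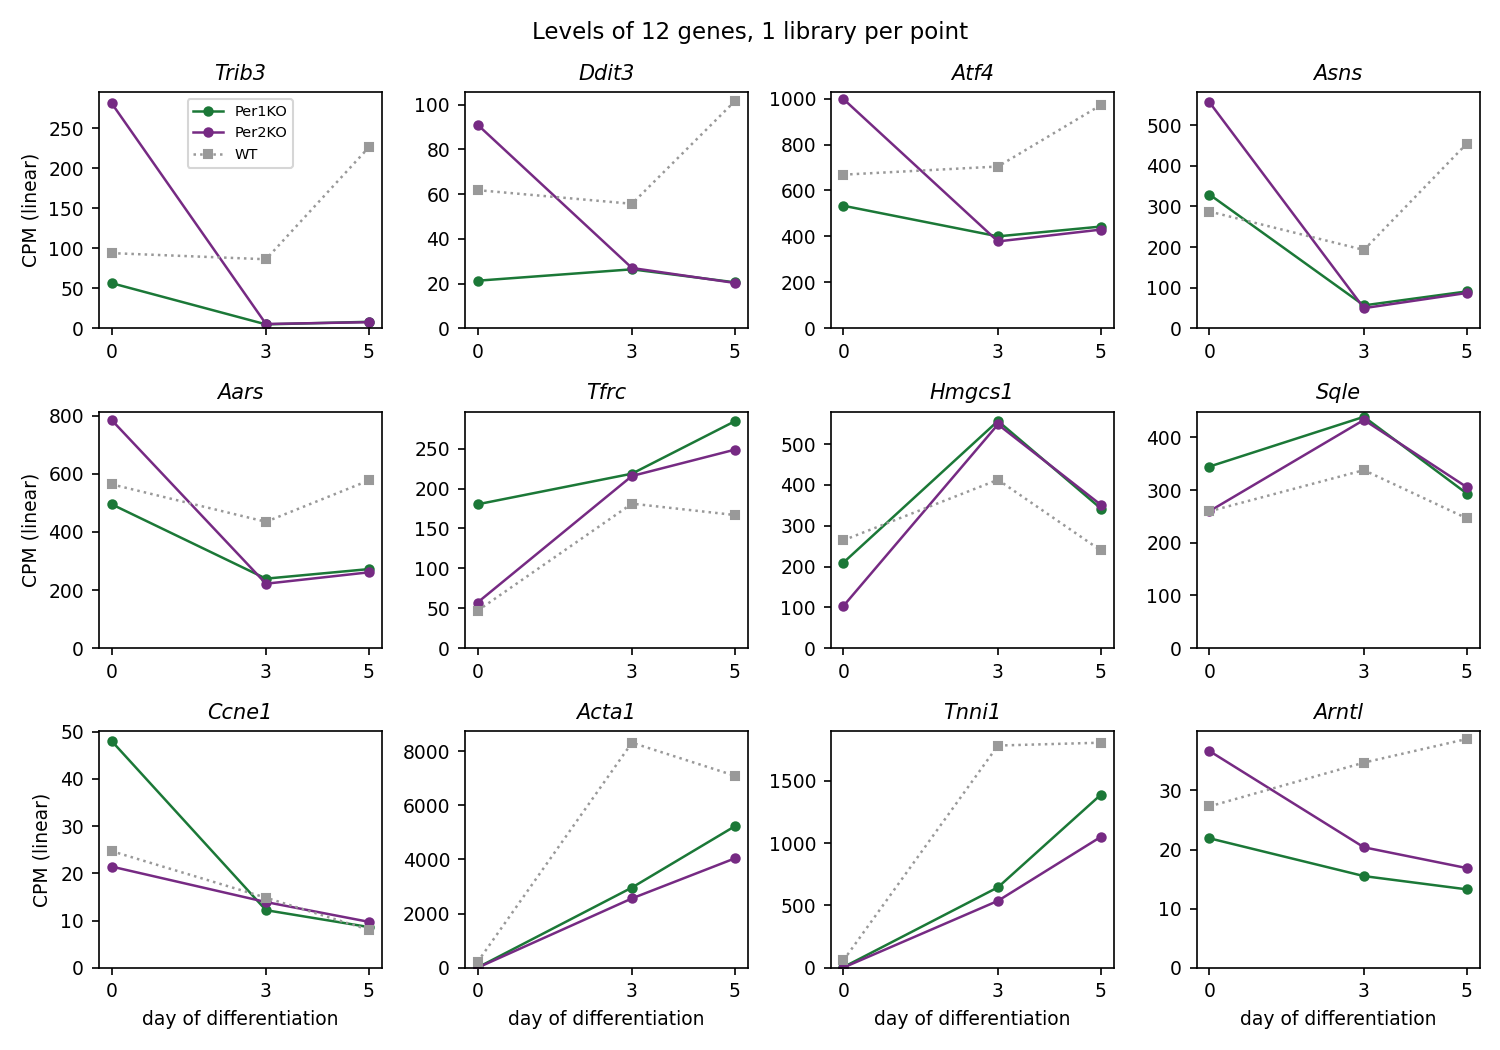
Levels of 12 genes (y axis, CPM on a linear scale from 0) on days 0, 3 and 5 (x axis) in Per1KO, Per2KO and WT, with 1 library per point. Trib3, Ddit3, Atf4, Asns and Aars are higher in Per2KO than in Per1KO on day 0 and close on days 3 and 5, Tfrc, Hmgcs1 and Sqle are lower, and Arntl is lower in Per1KO on all 3 days.

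Genes of cholesterol synthesis and uptake ran the other way and were higher in Per1KO on day 0. Of 25 listed, 24 were tested, 22 were at least 1.2-fold higher in Per1KO against 18.7% of all tested genes, and 0 were lower. The medians by day were 0.59, 0.08 and -0.02, and Per2KO on day 0 was the lowest of the 6 libraries for 23 of the 24, as it was for 23.2% of all tested genes. The interaction was called for 17, each with the day 0 difference above the later ones, against 7.02% of all tested genes. Against the shared WT library of day 0 the medians were -0.01 in Per1KO and -0.69 in Per2KO.

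Hmgcs1, the HMG-CoA synthase gene of the pathway, was at 209.8, 557 and 342 CPM in Per1KO and at 103, 548 and 351 CPM in Per2KO on days 0, 3 and 5. The day 0 level in Per1KO was 2.03-fold that in Per2KO, both populations reached a similar level on day 3, and the interaction was 1.03 ± 0.10 (SE), adjusted p = 2.09e-05 by edgeR. Sqle, which oxidises squalene, was at 345, 439 and 293 CPM in Per1KO and 260.1, 433 and 306 CPM in Per2KO.

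The member with the largest difference was Idi1, an isomerase of the isoprenoid steps, at 8.99, 29.1 and 18.3 CPM in Per1KO and 3.47, 25.2 and 17.1 CPM in Per2KO; it shares 22.2% of its 31-base words with other genes. Fdft1, the squalene synthase gene, had the smallest at 0.19 and shares 36.8%, and Srebf2, which encodes the regulator SREBP2, was next at 0.21, with 406, 584 and 459 CPM in Per1KO and 351, 552 and 501 CPM in Per2KO. These 2 were the members within 1.2-fold on day 0.

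In the promoters of this list the letters CCAAT, which the factor NF-Y binds, stood on either strand in 16 of 17 matched genes (94.1%), against 43.2% of tested genes with a promoter. They were not particular to this list. CCAAT stood in 19 of 29 matched stress response genes (65.5%), which differed in the other direction, and in 27 of 42 replication genes (64.3%). TCACNCCAC, a sterol element also outside the motifs first planned, was found in 1 of the 17 (5.88%), Hmgcs1, against 1.41%. Promoter stretches of 2 members with large day 0 differences are shown with CCAAT or its reverse complement in capitals.
Hmgcs1 (chr13:119690281-119690335, plus strand): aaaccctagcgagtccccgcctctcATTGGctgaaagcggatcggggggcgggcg
Dhcr7 (chr7:143830140-143830194, plus strand): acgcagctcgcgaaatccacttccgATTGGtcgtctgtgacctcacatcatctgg
Dhcr7, a reductase of the late steps, was at 36.8, 73.1 and 82.1 CPM in Per1KO and 19.9, 65.5 and 69.0 CPM in Per2KO and was chosen for its promoter after its values were seen.

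Tfrc (ENSMUSG00000022797, chromosome 16, 32608920 to 32632794, plus strand), the transferrin receptor that brings iron into cells, was at 180.2, 219 and 284 CPM in Per1KO and 57.1, 216 and 249 CPM in Per2KO. The day 0 level was 3.16-fold higher in Per1KO, and the 4 later libraries lay between 216 and 284 CPM. The interaction was 1.55 ± 0.10 (SE), adjusted p = 9.57e-07 in edgeR, and WT was at 46.8, 181 and 167 CPM, so on day 0 WT was nearer to Per2KO. An iron handling list of 18 tested genes was added after the values were seen. Of these, 4 were higher and 5 lower in Per1KO on day 0 at 1.2-fold, against 18.7% and 17.3% of all tested genes. The ferritin gene Fth1 was at 1972, 2117 and 2810 CPM in Per1KO and 1856, 2039 and 2684 CPM in Per2KO.

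Genes of DNA replication were higher in Per1KO on day 0. Of 52 tested, 34 were at least 1.2-fold higher and 0 lower (median 0.35), against 18.7% and 17.3% of all tested genes. The medians of days 3 and 5 were -0.01 and -0.04. The interaction was called for 26, each with the day 0 difference above the later ones, against 7.02% of all tested genes. Ccne1, the cyclin that opens S phase, was at 48, 12.2 and 8.62 CPM in Per1KO and 21.4, 13.9 and 9.73 CPM in Per2KO, with an edgeR interaction of 1.35, adjusted p = 3.86e-05; it was chosen after its values were seen. Cdc6, which loads the replicative helicase, had the largest day 0 difference at 1.18, and Dut, which clears dUTP, the smallest at -0.24.

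Rrm2, the regulated subunit of ribonucleotide reductase, was at 507, 245 and 226 CPM in Per1KO and 287, 243 and 208 CPM in Per2KO, and Mcm6, a helicase subunit, at 281, 90.3 and 60.5 CPM in Per1KO and 214, 95.8 and 59.6 CPM in Per2KO. Both were highest in Per1KO on day 0 and close between the populations later. Mitosis genes differed less: 33 of 64 were higher and 2 lower at 1.2-fold (median 0.28), against 18.7% and 17.3% of all tested genes. The interaction was called for 25 above and 2 below, against 7.02% and 6.8%. Top2a, which untangles chromosomes, was at 765, 224 and 96.9 CPM in Per1KO and 562, 236 and 104 CPM in Per2KO, while Smc4, a condensin subunit, was at 332, 129 and 78.3 CPM in Per1KO and 332, 145 and 77.1 CPM in Per2KO, a day 0 difference of 0.00, and Ndc80 of the kinetochore was lower in Per1KO (-0.49). In both populations the level on day 0 exceeded that on days 3 and 5 for each of these named S phase and mitosis genes.

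**Figure D3:**
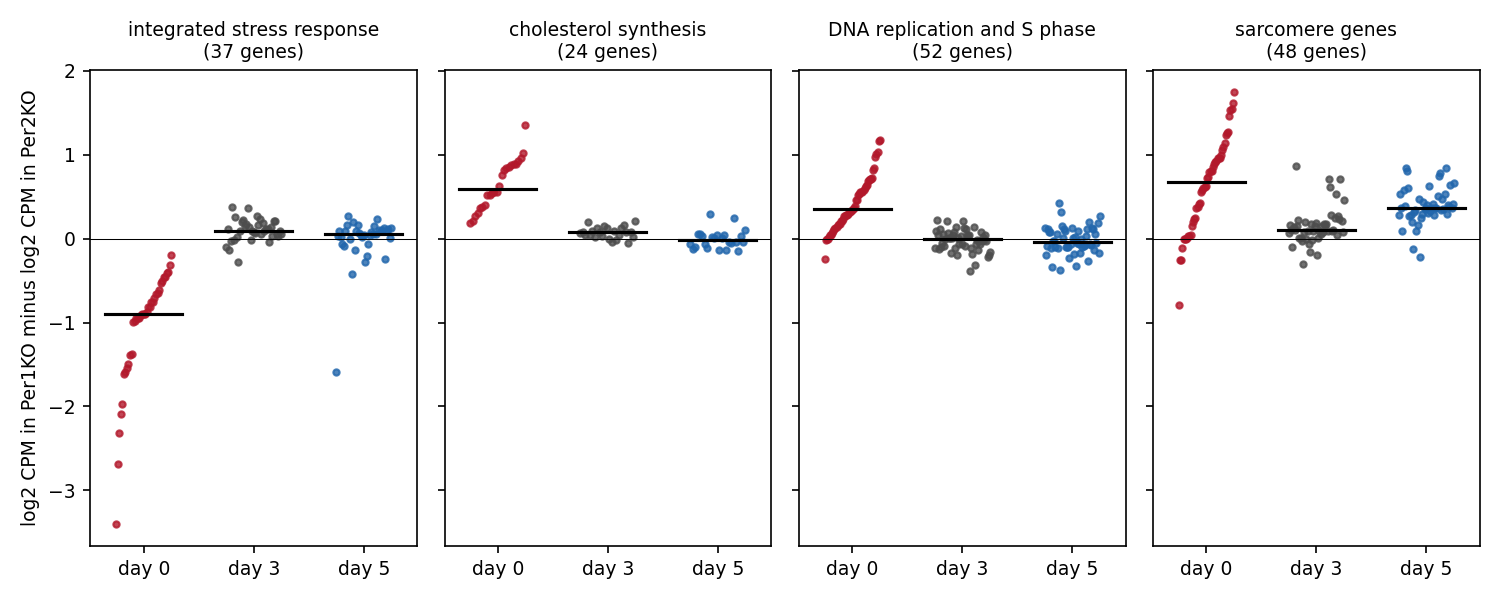
Differences of each tested member of 4 gene lists (y axis, log2 CPM in Per1KO minus log2 CPM in Per2KO) on days 0, 3 and 5, with members in the same order on each day and bars at the list medians. The 37 integrated stress response genes lie below 0 on day 0 and the 24 cholesterol synthesis genes above 0. Of 48 sarcomere genes, 41, 40 and 46 lie above 0 on days 0, 3 and 5, with the smallest median on day 3.

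Sarcomere genes were higher in Per1KO on day 0 and again on day 5. Of 52 listed, 48 were tested. On day 0, 33 were at least 1.2-fold higher and 1 lower (median 0.68), against 18.7% and 17.3% of all tested genes. Against the shared WT library of day 0 the list's medians were -2.21 in Per1KO and -3.29 in Per2KO, so both lay below WT. On day 3, 8 were higher and 1 lower (median 0.10), against 5.08% and 4.39%. On day 5, 41 were higher and 0 lower (median 0.37), against 7.02% and 6.1%. The difference was above 0 on all 3 days for 34 of the 48, as it was for 15.8% of all tested genes. In the additive model 31 of the 48 had an unadjusted p under 0.05 in edgeR, each higher in Per1KO, against 2.7% of all tested genes, and 0 had an adjusted p under 0.05. Many of these genes were low on day 0: 10 of the 48 were at or under 3 counts in at least 1 of the 2 libraries, and over the other 38 the median was 0.62 with 27 higher and 1 lower. Per2KO on day 0 was the lowest of the 6 libraries for 40 of the 48, as it was for 23.2% of all tested genes. Per1KO on day 0 was the lowest for 6. Sarcomere genes rise in differentiation, so the lowest library was nearly always one of day 0.

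Acta1 (chromosome 8, 123891769 to 123894751, minus strand), skeletal muscle actin, was at 9.34, 2964 and 5228 CPM in Per1KO and at 3.17, 2563 and 4042 CPM in Per2KO, with differences of 1.55, 0.21 and 0.37 on days 0, 3 and 5. Mylpf, the fast regulatory myosin light chain gene, was at 11.3, 2522 and 4693 CPM in Per1KO and 5.94, 2240 and 3654 CPM in Per2KO. Tnni1, slow troponin I, was at 5.83, 645 and 1388 CPM in Per1KO and 2.39, 537 and 1050 CPM in Per2KO and was at least 1.2-fold higher in Per1KO on every day. Per1KO was above Per2KO on each day in all 3 of these genes, and the difference was smallest on day 3. Des, the muscle intermediate filament gene, was already high on day 0 at 1634 and 1271 CPM and differed by 0.36, 0.00 and 0.10, and Tpm2, a tropomyosin gene, differed by 0.23, 0.08 and 0.31.

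Myosin heavy chain genes of adult, perinatal and slow fibres were also higher in Per1KO on days 3 and 5. Myh1 was at 0.578, 137 and 317 CPM in Per1KO and 0.221, 94.8 and 176 CPM in Per2KO, and Myh7 at 0.0413, 35.2 and 98.9 CPM in Per1KO and 0, 21.4 and 58.8 CPM in Per2KO. Myh4 had 5 counts in Per1KO and 0 in Per2KO on day 0, Myh8 had 4 and 0, and Myh7 had 2 and 0, so no fold is given for that day; on day 5 they differed by 0.67, 0.64 and 0.75. These 4 genes share 33.6% (Myh7), 30.4% (Myh4), 32.5% (Myh8) and 42.6% (Myh1) of their 31-base words with other genes, and how the authors' counting split such reads is not given in the sources used here. Without members that share at least 10%, the list's medians were 0.61 on day 0 and 0.36 on day 5.

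The direction was not shared by the whole list. Myom2, an M-band protein gene, was at 17.2, 555 and 1049 CPM in Per1KO and 29.8, 528 and 861 CPM in Per2KO, lower in Per1KO on day 0 and higher on day 5, with an edgeR interaction of -0.97, adjusted p = 2.13e-04. Ttn, the titin gene, was chosen after its values were seen and differed by 0.42, -0.16 and -0.22. In the sarcomere promoters the E-box CAGCTG, which MYOD1 and MYOG bind and which reads the same on both strands, stood in 17 of 40 matched genes (42.5%) against 18% of tested genes with a promoter; the stretch of Acta1, whose levels are given above, is shown with it in capitals.
Acta1 (chr8:123894966-123895021, minus strand): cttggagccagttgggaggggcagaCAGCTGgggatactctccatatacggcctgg
The share of CAGCTG in sarcomere promoters describes genes listed by function and not the difference between the populations. For comparison, CACGTG stood in 4 of 12 matched cytosolic synthetase genes (33.3%) against 11.9%, and TTTGAA in 7 of 42 replication genes (16.7%) against 14.1%.

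Genes of excitation-contraction coupling and muscle metabolism differed mostly in 1 direction on day 5, when 21 of 38 were at least 1.2-fold higher in Per1KO and 1 lower (median 0.30). The shares of all tested genes on day 5 were 7.02% and 6.1%. On day 0 they differed in both directions, with 16 higher and 8 lower, against 18.7% and 17.3% of all tested genes. The medians of days 0 and 3 were 0.20 and 0.09. Casq2, a calcium store protein gene, was at 2.23, 719.9 and 1279 CPM in Per1KO and 1.57, 609 and 942 CPM in Per2KO, and Atp2a2, the slow calcium pump gene, at 515, 1044 and 2500 CPM in Per1KO and 481, 1084 and 2016 CPM in Per2KO. Eno3, the muscle enolase gene, differed by 0.24, 0.16 and 0.30, while Chrna1, the acetylcholine receptor subunit gene, stayed within 1.2-fold on all 3 days. Cox6a2, a muscle form of a respiratory chain subunit, had the most negative day 0 difference, at 0.103, 8.40 and 18.3 CPM in Per1KO and 1.93, 7.21 and 12.8 CPM in Per2KO.

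The regulators of myogenesis differed in both directions. Myf5, the early myoblast factor gene, was at 54.0, 59.9 and 46.7 CPM in Per1KO and 133, 67.3 and 56.0 CPM in Per2KO on days 0, 3 and 5, so it was 2.46-fold higher in Per2KO on day 0 and above Per1KO on every day; the edgeR interaction was -1.09, adjusted p = 1.52e-05. Myog, which drives terminal differentiation, was at 5.45, 266 and 357 CPM in Per1KO and 2.97, 229.8 and 275 CPM in Per2KO and was higher in Per1KO on every day. Id2, an inhibitor of the myogenic factors, was also higher in Per1KO, at 31.7, 5.20 and 7.77 CPM against 11.4, 3.87 and 6.19 CPM. Mef2a, Mef2d and Tcf12 stayed within 1.2-fold on all 3 days. Of 25 regulators tested, 13 were higher and 4 lower in Per1KO on day 0 at 1.2-fold, against 18.7% and 17.3% of all tested genes.

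Fusion genes differed in both directions on day 0. Elmo1, which takes part in Rac activation, had the most negative day 0 difference of all tested genes at -3.88, with 6 counts in Per1KO and 121 in Per2KO, or 0.124, 3.18 and 2.20 CPM in Per1KO and 2.43, 3.47 and 3.32 CPM in Per2KO over the 3 days. Mymx, the micropeptide that opens the fusion pore, had 13 counts in Per1KO and 2 in Per2KO on day 0, and differed by 0.36 and 0.28 on days 3 and 5. Npnt, a matrix ligand gene, was at 267, 707 and 1181 CPM in Per1KO and 170.1, 719.7 and 994 CPM in Per2KO. Itgb1, Bin1 and Myof were within 1.2-fold on each day. At 1.2-fold, 8 of 17 fusion genes were higher and 2 lower on day 0, against 18.7% and 17.3% of all tested genes.

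A steady shift over the 3 days was rare. At a mean of 10 CPM or more, 23 genes were at least 1.2-fold higher in Per1KO on every day (0.241% of 9549) and 11 were lower (0.115%), and without genes that share at least 10% of their sequence these were 16 and 10. On day 0 9 of the 23 had 3 or fewer counts in at least 1 library (Myh4, Myh7, Myh8, Csrp3, Casq1, Mymx, BC051019, Cd36 and Adamtsl2), at or near the counting floor, so the day 0 step of these genes is uncertain; over genes above 3 counts in both day 0 libraries 14 were higher and 11 lower. Among the 23 higher genes were the sarcomere genes Myh1, Myh4, Myh7, Myh8, Tnni1 and Csrp3, the calcium store gene Casq1, Mymx, BC051019, Id2, the lipid receptor gene Cd36, Daam2, Nptx1, Tmem37, Adamtsl2, Alpk2, N4bp3, Fam167a, Smpdl3b, Cdca7, Impdh2 and Arhgef26. The 11 lower genes were Colec10, Fzd4, Cxcl12, Cdh11, Ccn3, Calcrl, Brinp3, Csn3, Ndst4, 1810022K09Rik and Arntl.

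Colec10 (chromosome 15, 54410774 to 54466358, plus strand), a secreted collectin gene, had the largest negative effect in the additive model among the genes named by rule, at 0.702, 23.0 and 16.0 CPM in Per1KO and 1.38, 39.7 and 32.6 CPM in Per2KO. Its effect was -0.92 ± 0.10 (SE), unadjusted p = 6.91e-05 (adjusted p = 0.446, edgeR), higher in Per2KO on 3 of 3 days and without shared sequence. Cxcl12, a chemokine gene, was at 4.15, 19.7 and 15.3 CPM in Per1KO and 5.86, 25 and 29.2 CPM in Per2KO, and Cdh11, a mesenchymal cadherin gene, at 4.81, 34.4 and 36.9 CPM in Per1KO and 6.98, 43.6 and 60.5 CPM in Per2KO, both higher in Per2KO on each day. Rnaset2a, another gene with a large negative effect, shares 85.5% of its sequence and is uncertain.

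The remaining genes with the largest negative day 0 differences belong to no single group. Fibin, a secreted protein gene, was at 1.03, 51.2 and 53.4 CPM in Per1KO and 8.39, 61.3 and 67.1 CPM in Per2KO, 8.12-fold higher in Per2KO on day 0, with an edgeR interaction of -2.72, adjusted p = 1.15e-06. Stbd1, which tethers glycogen, was at 84.4, 92.1 and 109 CPM in Per1KO and 242, 95.8 and 111 CPM in Per2KO, and Cdsn, better known from skin, was at 14.8, 2.95 and 3.03 CPM in Per1KO and 62.1, 3.05 and 3.22 CPM in Per2KO. Acot2, a mitochondrial thioesterase gene that shares 35.3% of its sequence, was at 4.79, 5.24 and 9.26 CPM in Per1KO and 34.3, 4.84 and 9.38 CPM in Per2KO. In Stbd1, Cdsn and Acot2 the later libraries of the 2 populations were within 1.2-fold of each other, and Fibin differed by -0.26 and -0.33 on days 3 and 5. Rassf5, Fam171b, Fzd4 and Adamts2 had day 0 differences of -1.77, -1.75, -1.47 and -1.44.

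Clock genes differed in both directions. Arntl (chromosome 7, 113207465 to 113314126, plus strand), which encodes BMAL1, was at 21.9, 15.5 and 13.3 CPM in Per1KO and 36.6, 20.4 and 16.9 CPM in Per2KO on days 0, 3 and 5, lower in Per1KO on 3 of 3 days; the additive effect was -0.50 ± 0.10 (SE), unadjusted p = 0.00276 in edgeR and did not pass adjustment (adjusted p = 0.839). Its partner Npas2 was lower on each day too, at 0.599, 1.09 and 1.25 CPM in Per1KO and 1.42, 1.87 and 1.71 CPM in Per2KO. Among genes that the loop drives, Per2 (levels given above), Per3, Tef and Dbp were higher in Per1KO on each day. Per3 was at 12.3, 20.6 and 22.4 against 7.30, 17.8 and 18.1 CPM. Tef was at 99.4, 206 and 288 against 65.8, 177 and 229 CPM, and Dbp at 10.4, 15.0 and 13.9 against 7.53, 12.3 and 12.2 CPM. Ciart, another such gene, was lower on day 0 and higher later, by -1.17, 0.28 and 0.16. Other clock genes were mixed on day 0, with Per1KO over Per2KO at 1.09 for Nr1d1, 0.958 for Nr1d2, 1.23 for Cry1 and 0.838 for Cry2. Dbp shares 28.3% of its sequence with other genes. Arntl, Npas2, Per3, Dbp, Ciart, Nr1d1, Nr1d2, Cry1 and Cry2 were chosen after their values were seen.

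Other clock genes differed most on day 0 or stayed close. Rora, an activator of Arntl, was at 1.05, 7.85 and 12.8 CPM in Per1KO and 4.01, 9.86 and 14.1 CPM in Per2KO, and Nfil3, a repressor, at 14.1, 12.1 and 13.5 CPM in Per1KO and 37.7, 13.1 and 14.2 CPM in Per2KO, with edgeR interactions of -1.70, adjusted p = 6.17e-04 and -1.33, adjusted p = 5.10e-05. Csnk1d, Csnk1e, Clock and Bhlhe40 stayed within 1.2-fold on all 3 days. Of 28 clock genes tested, 8 were higher and 7 lower in Per1KO on day 0 at 1.2-fold, against 18.7% and 17.3% of all tested genes. At any size, 5 were higher on all 3 days and 7 lower on all 3 days, against 15.8% and 13.1% of all tested genes. The list's median was -0.03, -0.01 and 0.01. The labels give no time of day of harvest.

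**Figure D4:**
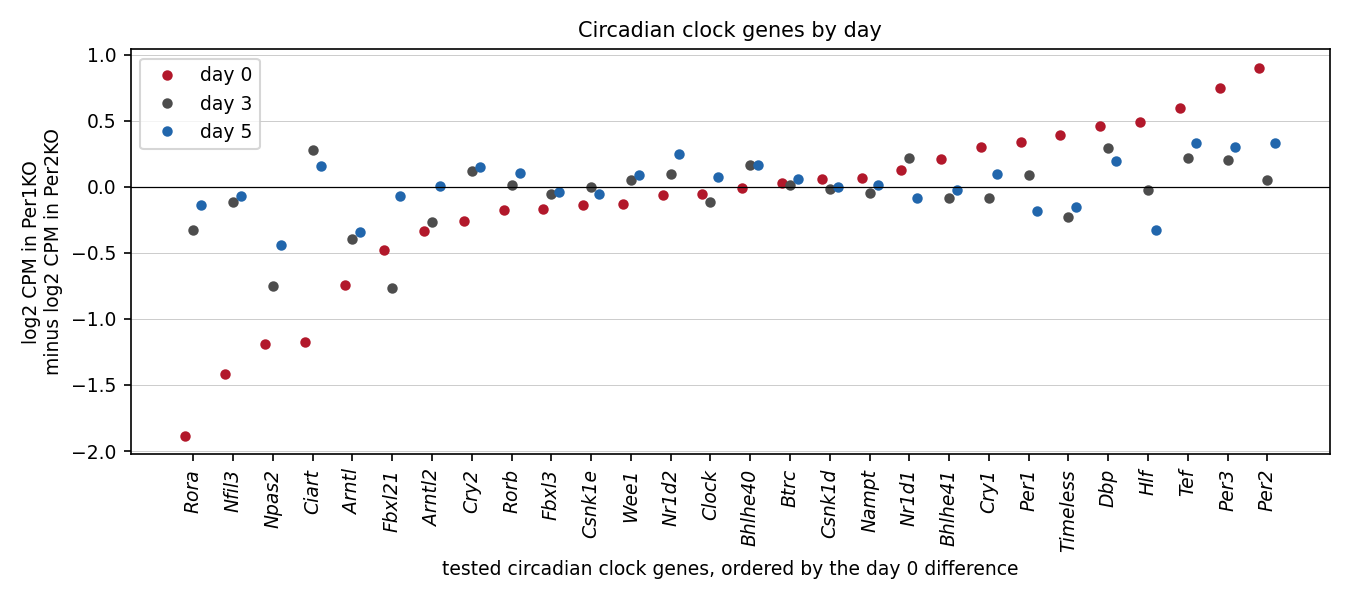
Differences of 28 circadian clock genes (y axis, log2 CPM in Per1KO minus log2 CPM in Per2KO) on days 0, 3 and 5, ordered by the day 0 difference. Arntl and Npas2 are below 0 and Per2, Per3, Tef and Dbp above 0 on all 3 days, while Rora, Nfil3 and Npas2 lie furthest below 0 on day 0.

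On day 5 interferon and matrix genes were higher in Per2KO. Of 33 interferon-stimulated genes tested, 16 were at least 1.2-fold lower in Per1KO and 0 higher on day 5 (median -0.24, against 0.01 over all genes). The shares of all tested genes were 6.1% and 7.02%. On day 0 9 were lower and 11 higher, against 17.3% and 18.7%. The median was smaller among members of higher level: over members with a mean of at least 10 CPM the day 5 median was -0.09. Ifit1, an RNA-binding antiviral gene, was at 0.785, 1.47 and 0.611 CPM in Per1KO and 1.83, 2.54 and 4.13 CPM in Per2KO and shares 10.6% of its sequence, while B2m, the light chain of class I molecules, was at 269.8, 430.1 and 410.4 CPM in Per1KO and 332, 463 and 441 CPM in Per2KO.

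Collagen genes had a median of -0.04 before differentiation, 0.13 on day 3 and -0.20 on day 5. On day 5, 10 of 29 were at least 1.2-fold lower in Per1KO and 1 higher, against 6.1% and 7.02% of all tested genes. Col1a2 was at 605, 1005 and 764 CPM in Per1KO and 682, 896 and 976 CPM in Per2KO, and Col3a1 at 1644, 5735 and 3123 CPM in Per1KO and 1852, 5023 and 3782 CPM in Per2KO, each higher in Per1KO on day 3 and lower on days 0 and 5. Serpinh1, the collagen chaperone gene, was within 1.2-fold on all 3 days. Fibroblast markers were also higher in Per2KO on day 5: their summed level was 2714 CPM in Per1KO and 3016 CPM in Per2KO, with 3 of 11 at least 1.2-fold lower in Per1KO, 0 higher, and Thy1 and Tcf21 at 0 counts in all 6 libraries. In bulk RNA fewer cells of a type and less RNA per cell cannot be told apart, and the part of these markers in the collagen values was not tested.

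Some markers of neural and glial cells were higher in Per1KO on day 0. The summed level of the list was 833 CPM in Per1KO and 506 CPM in Per2KO on day 0. In the 4 later libraries it was 199 to 287 CPM. On day 0, 3 of 5 tested members were at least 1.2-fold higher in Per1KO and 0 lower, against 18.7% and 17.3% of all tested genes. The sum was made up mostly of the neurofilament genes Nefl, at 301 and 154 CPM, and Nefm, at 169 and 82.3 CPM, and the tubulin gene Tubb3, at 196 and 98.1 CPM. Map2 and Stmn2 were within 1.2-fold on day 0, with 3278 and 4766 counts in Per1KO and 3255 and 5224 in Per2KO. The defining markers Snap25 and Rbfox3 had 0 counts in all 6 libraries and Sox10 had 0 in 5 and 1 in the other. Nefl shares 32.2% and Nefm 30.1% of their 31-base words with other genes, and without members that share at least 10% the list's day 0 median was 0.05 in place of 0.97. Adipocyte markers summed to 76.0 CPM in Per1KO and 108 CPM in Per2KO on day 0, with Adipoq at 0 counts in all 6 libraries. The part of either list in the other day 0 differences was not tested.

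Most genes lay close together in the 2 populations. Of the 9549 genes whose mean reached 10 CPM, 6261 (65.6%) were within 1.2-fold on all 3 days. Among lists, 53 of 62 nuclear genes of oxidative phosphorylation at that level (85.5%) were within this range on every day, as were 8 of 9 Hox genes (88.9%). Ribosome biogenesis genes (25 of 37, 67.6%), cytosolic ribosomal protein genes (46 of 69, 66.7%) and SRF and YAP targets (17 of 24, 70.8%) were near the share of all genes. The lists of DNA replication (13 of 48), cholesterol synthesis (2 of 24), sarcomere genes (2 of 44) and the integrated stress response (1 of 36) had fewer. Igfbp5, a secreted binding protein gene of high level, was at 2514, 4171 and 3930 CPM in Per1KO and 2537, 4308 and 4127 CPM in Per2KO and illustrates this range; it was chosen after its values were seen.

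The response to differentiation was largely common to both populations, which share no library in this comparison. From day 0 to day 5, 2550 of 12905 genes (19.8%) changed at least 2-fold in the same direction in both, 1438 up and 1112 down (1260 up and 1376 down when scaled by library totals), while 741 reached 2-fold in Per1KO only, 521 in Per2KO only and 6 in opposite directions. Across the 12905 genes, which are not independent replicates, the 2 responses had a Pearson's r of 0.952 and a Spearman's rho of 0.905. Acta1 went from 9.34 to 5228 CPM in Per1KO and from 3.17 to 4042 CPM in Per2KO, and Cdk1, the mitotic kinase gene, from 355 to 51.8 CPM and from 244 to 54.3 CPM; Cdk1 was chosen after its values were seen. Trib3, as a stress gene, had a higher start in Per2KO and a similar end, and it went from 56.5 to 8.23 CPM in Per1KO and from 281 to 7.75 CPM in Per2KO.

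**Figure D5:**
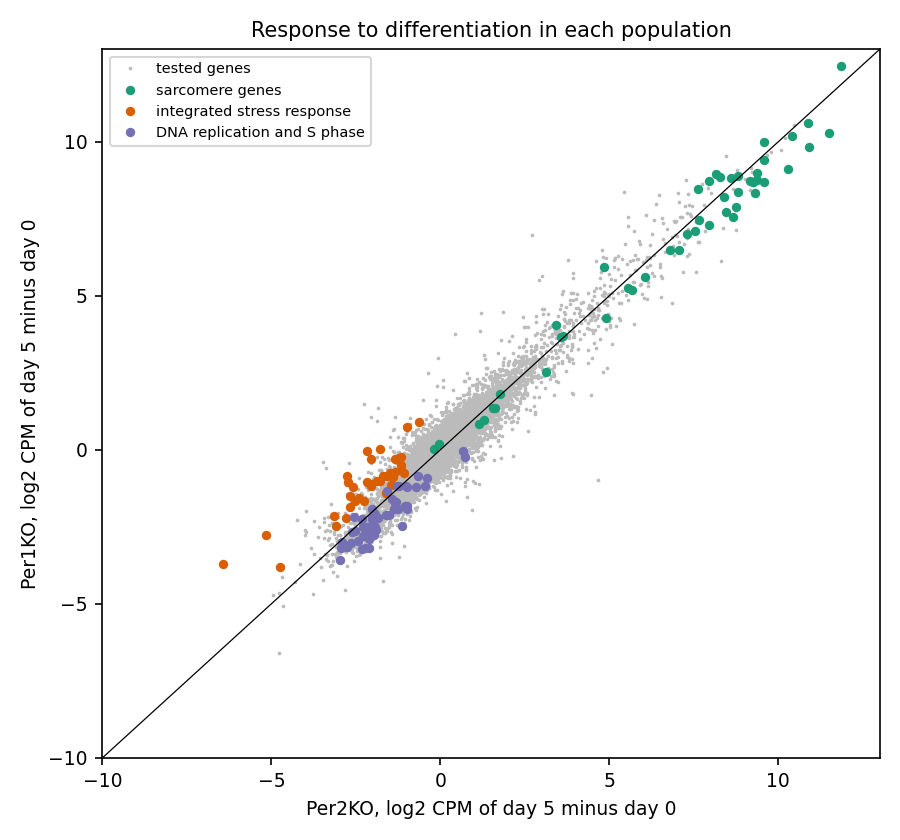
Log2 change from day 0 to day 5 in Per2KO (x axis) and Per1KO (y axis) for 12905 tested genes, 1 point per gene, with a line where both changes are equal. Sarcomere genes lie at the upper end close to the line, S phase genes at the lower end, and integrated stress response genes lie above the line, with a larger decrease in Per2KO.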

How the data were processed

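RNA-seq counts of C2C12 populations were used as deposited: whole-number counts per Ensembl gene, made by the authors from polyadenylated RNA (TruSeq kit, single reads, HiSeq 2500, per the labels' protocols). The submitters' processing notes name CASAVA 1.8, HISAT2 2.1.0 and mm10; the counting program, its annotation and use of strand are not given in the sources used here. Positions and 31-base words came from GENCODE M21 (GRCm38), which matched 47310 of 47729 genes, and promoters from RefSeq.

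The 12905 genes that reached 1 CPM in 3 or more of the 6 knockout libraries were tested with edgeR 4.0.16 (limma 3.58.1, R 4.3.3): TMM scaling, robust quasi-likelihood fits, Benjamini-Hochberg adjustment, adjusted p under 0.05. The additive fit held day and population (2 residual degrees of freedom), and the interaction fit added population by day 0 (1 residual degree of freedom), so days stand in for replicates and p-values speak of these cultures. Single-day differences use a prior count of 2. A floor of 3 counts was 0.0624 to 0.0714 CPM in the knockout libraries, and it covers counting error only.

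Genes were named by rule: Per1 and Per2; the 8 largest rises and falls on day 0 and in the additive fit, and the 4 largest interactions each way, among protein-coding genes whose mean reached 10 CPM (same direction on all 3 days for the first 2); and the 4 highest and 2 extreme members of each list described; any other gene is said to be chosen after its values were seen. The members, lists and motifs were chosen with earlier results of these data known. A few genes that these rules name are not reported here. Alternatives were other scalings, filters, priors, folds, tools (DESeq2 1.42.0, limma-voom) and libraries.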

Additional observations from a re-analysis of the deposited data

Results flagged for a closer look

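Each result here differs between day 0 and the later days by the test of that difference itself. The test is edgeR's interaction of population with day 0 on 1 residual degree of freedom. Values are the day 0 difference minus that of days 3 and 5 (log2, Per1KO minus Per2KO). This interaction rests on 1 day 0 library per population, and its p-values do not measure variation between cultures on that day. It was called for 1784 of 12905 genes. The genes named by rule that were called with a positive value were Tfrc (1.55), Myh3 (1.43), Acta1 (1.27), Id2 (1.1) and Per2 (0.72, adjusted p = 0.0399). Those called with a negative value were Acot2 (-2.88), Cth (-2.76), Fibin (-2.72), Trib3 (-2.30), Cdsn (-2.0), Rassf5 (-1.57), Nupr1 (-1.56), Fam171b (-1.50), Stbd1 (-1.48), Adamts2 (-1.22) and Fzd4 (-1.08). The adjusted p was between 1.78e-07 for Trib3 and 0.0122 for Myh3 in the genes other than Per2. None of these 16 genes was called with the WT libraries in the fit. Myh4, Myh8, Actn2 and Myh7 had the 4 largest positive estimates, but each had 0 counts in Per2KO on day 0 and was not called.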

How the results depend on the processing

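No paired analysis beyond the pairing by day was possible because each population and day has 1 library. The additive test called 0 genes, and 8 by DESeq2's Wald test, 8 with no filter beyond 1 count, 45 without day 0, and 0 without day 3 or day 5. The interaction called 1784 genes, 486 by DESeq2 and 0 with all 9 libraries (726 at an unadjusted p under 0.05); the cause was not tested. Leaving out day 3 or day 5 leaves it no residual degree of freedom and was not run. Genes 2-fold apart on day 0 numbered 310, 116 at 10 CPM or more and 1234 at 1.5-fold. On day 3 they were 30, 5 at 10 CPM or more, 190 at 1.5-fold, 17 over protein-coding genes and 7 without shared sequence. On day 5 they were 74, with 12, 359, 49 and 46 under these settings. Steady shifts numbered 34, 115 at a mean of 1 CPM and 4 at 1.5-fold; close genes 6261 and 2862 at 1.1-fold; shared responses 2550 and 4637 at 1.5-fold. The other 43 counts stayed within 1.5 times. Of 528 list medians under alternatives 522 moved by at most 0.1 and 23 took the other sign, the largest being the day 0 median of fibroblast markers (-0.21, and 0.11 over members of at least 10 CPM). The exclusions of genes with shared sequence or with 3 or fewer day 0 counts (25 steady shifts) were chosen after seeing the data, as were interaction fits without robust weights (1259 calls). Per2's interaction was not called by DESeq2, limma-voom or without robust weights, and Id2 and Fzd4 were not called by DESeq2, nor Myh3 and Adamts2 by limma-voom. Below 3 counts, differences were not detectable at this depth.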

Other observations

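Genes of other lists also differed on day 0, and those named here were chosen after their values were seen. The D-type cyclins, which drive the exit from G1, split: Ccnd1 was at 354, 86.8 and 65.7 CPM in Per1KO and 230.2, 94.3 and 67.4 CPM in Per2KO on days 0, 3 and 5 and Ccnd3 at 139, 405 and 563 CPM in Per1KO and 96.4, 402 and 544 CPM in Per2KO, while Ccnd2 was at 153, 106 and 103 CPM in Per1KO and 269, 117 and 114 CPM in Per2KO. Their day 0 differences were 0.62, 0.53 and -0.81.

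The imprinted neighbours Igf2, a myoblast growth factor gene, and H19 were both higher in Per1KO on day 0, by 0.99 and 0.86. Igf2 was low then, with 29 counts in Per1KO and 14 in Per2KO, and its edgeR interaction was not called (adjusted p = 0.141), while H19 was at 468 and 258 CPM. They differed by 0.14 and 0.01 on day 3. Stc2, a secreted stanniocalcin gene, was lower in Per1KO on day 0 (-0.99) and higher on days 3 and 5 (0.22 and 0.20). Of 35 matrix proteases and inhibitors, 18 were lower in Per1KO on all 3 days at any size and 2 higher, against 13.1% and 15.8% of all tested genes, and Mmp3, a stromelysin gene that shares 14.6% of its sequence, differed by -1.14, -0.97 and -1.01.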
